A study of Mus musculus with 12 samples.

Results

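The chromosome 2 stretch from 90 to 100 Mb (mouse build mm10, chr2:90000001-100000000) was singled out because the libraries of PBS-treated mice appeared to hold fewer CpG calls there than those of treated mice, so it was selected on its CpG calls, which are described here without a test. Its members were all CpGs listed in that interval by any library, with both strands summed. There were 43732 of them among 13236567 CpGs on the autosomes, X and Y. Of the 43732, 3878 reached 10 or more calls in every one of the 12 libraries. These are called common CpGs below, and only their methylation was compared. Whole-series common CpGs numbered 1052856.

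The cells were CMM cells, GFP-marked mouse acute myeloid leukaemia cells injected by vein into C57BL/6 hosts. Hosts were injected intravenously 3 times, every other day, from the time about 1% of blood cells were GFP-positive, with spleens collected 1 day later than the final dose. The 4 PBS libraries came from GFP-positive cells of PBS-injected mice, not sorted by CD11b. The 4 CD11b-negative and 4 CD11b-positive libraries came from GFP-positive cells of mice given CpG-STAT3dODN, which couples a TLR9-binding CpG oligonucleotide with a decoy of the transcription factor STAT3, split by the myeloid integrin CD11b. Treatment and sorting therefore cannot be told apart against PBS. All 12 hold CMM cells grown in the same host strain. CMM cells carry the CBFB-MYH11 fusion of inv(16) leukaemia. Host age, host sex and the number of leukaemia clones are not in the labels. Nor do they tell which libraries are from different mice, and p-values therefore reflect the spread between these libraries only, which may be technical.

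Reduced representation bisulfite sequencing reads the CpGs of restriction fragments, which favours CpG-rich gene starts. In mammals such starts are mostly unmethylated, while sparse CpGs in gene bodies and between genes are mostly methylated. The stretch holds genes at its lower end and is gene-poor at its upper end. Its best known blood gene is Spi1, which encodes PU.1, the transcription factor that drives myeloid differentiation, and loss of a chromosome 2 segment with Spi1 is a recurrent event in radiation-induced mouse leukaemia. Repeated DNA behaves differently from single-copy DNA in such data. Mouse pericentromeres consist of major satellite, a tandem repeat that is heavily methylated, and reads from many genomic copies can be placed on the few copies that the reference sequence holds.

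The gene starts differ in CpG content, which the 250 bases before 3 of them show (RefSeq, GRCm38.p6, all on the minus strand, capitals marking each CG that was a common CpG). They are shown because the measured gene windows below range from dense to nearly CpG-free. Ptprj (chr2:90580596-90580845) encodes a receptor tyrosine phosphatase of blood cells. Cd82 (chr2:93462503-93462752) encodes a tetraspanin. F2 (chr2:91636458-91636707) encodes prothrombin.
Ptprj: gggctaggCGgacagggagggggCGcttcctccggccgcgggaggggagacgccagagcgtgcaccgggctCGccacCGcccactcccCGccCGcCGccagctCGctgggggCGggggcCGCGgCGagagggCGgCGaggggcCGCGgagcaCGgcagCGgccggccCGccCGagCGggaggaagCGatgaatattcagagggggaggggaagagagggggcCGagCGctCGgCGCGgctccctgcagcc
Cd82: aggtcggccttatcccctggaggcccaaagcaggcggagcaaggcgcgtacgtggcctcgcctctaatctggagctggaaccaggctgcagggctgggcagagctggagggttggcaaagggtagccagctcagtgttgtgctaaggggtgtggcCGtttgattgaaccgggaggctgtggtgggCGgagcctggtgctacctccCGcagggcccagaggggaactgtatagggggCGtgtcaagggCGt
F2: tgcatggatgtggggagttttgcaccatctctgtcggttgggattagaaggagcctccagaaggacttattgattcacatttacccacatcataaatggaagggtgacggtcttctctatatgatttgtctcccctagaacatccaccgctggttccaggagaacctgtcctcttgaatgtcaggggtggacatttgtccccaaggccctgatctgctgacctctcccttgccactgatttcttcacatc
The Ptprj sequence held 34 CGs, of which 27 were measured. The Cd82 sequence held 12 CGs with 5 measured, and that of F2 held 3 with 0 measured. All 500 common CpGs that fell within RefSeq promoter sequences of the stretch lay on a CG there.

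The libraries held 112671408 to 157223205 calls. The libraries numbered 2 of both treated fractions listed the most CpGs, 6514505 in CD11b-negative and 6839563 in CD11b-positive. CD11b-positive 1, 3 and 4 listed 3713833, 5722886 and 4438896, and CD11b-negative 1, 3 and 4 listed 3809063, 3156132 and 2955987. The PBS libraries listed 2831927 to 3378484. Every CD11b-positive library thus listed more CpGs than every PBS library, which cannot be told apart from the group. Calls on 8 single-copy Y genes (the Y share) ran at 5.52 to 18.6 per 1000000 autosomal calls (CPM) in PBS, 8.64 to 12.9 in CD11b-negative 1, 3 and 4, 23.8 to 25.04 in CD11b-positive 1, 3 and 4, and 40.2 and 41.3 in the libraries numbered 2. Calls on the X chromosome ran at 22078 to 25700 in PBS and 14392 to 19839 CPM in CD11b-positive. A CpG, tile or gene window is named called where the quasi-binomial F test gave an adjusted p under 0.05 over the whole table and the group means differed by at least 10 points. Of 6 marker genes per cell type, 4 of 5 measured erythroid windows and 1 of 1 measured B cell window were called higher in CD11b-positive than in PBS. Among T cell windows 1 of 3 was called lower, and 0 of 4 myeloid windows was called. Over all 13929 gene windows, 4.54% were called higher and 4.88% lower. The part of these differences in the results below was not tested. Since the Y share of PBS and of CD11b-positive libraries did not overlap, it cannot be told apart from the group, and the fits below with the Y share as a term are given as alternatives and test no cause.

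The difference in calls was not spread over the whole stretch. In 9 of its 10 bins of 1 Mb the CD11b-positive mean was 0.954 to 1.198 times the PBS mean. The exception was the bin from 98 to 99 Mb, where the ratio was 3.65, the highest of 2409 autosomal 1 Mb bins (median ratio 1.01). Within it, the excess lay in 1 bin of 10 kb, chr2:98660001-98670000, without which the ratio of that 1 Mb bin was 1.07. The other 78 bins of 10 kb with at least 10 CPM in the whole stretch had ratios of 0.791 to 1.105. The label of a broad stretch with fewer PBS calls was therefore not borne out, and the description applies to this 10 kb bin.

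**Figure D1:**
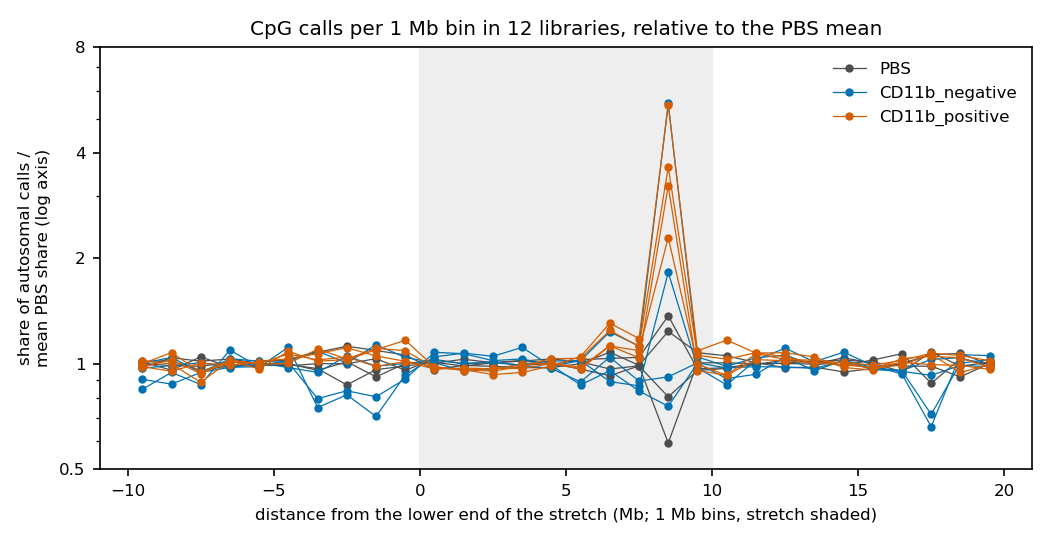
Share of autosomal CpG calls in each 1 Mb bin, divided by the mean share of the 4 PBS libraries (log axis), against distance from the lower end of the stretch (shaded) and through 10 Mb of flank on each side. Each line is a library, and the groups part in the bin from 8 to 9 Mb of the stretch, where the CD11b-positive mean was 3.65 times the PBS mean.

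The search for edges depended on the bin size. At the lower end the largest step between neighbouring 1 Mb bins was 0.14 on the log2 scale, at 90 Mb. At the upper end it was 1.83, at 99 Mb, which is the upper side of the bin with the excess. In bins of 100 kb the largest steps were 2.62 at 89.4 Mb and 2.07 at 98.9 Mb, and neither lies at the 10 kb bin. The 100 kb bins below these steps had log2 ratios of PBS over CD11b-positive of -2.64 and -2.08. The 1 Mb bin from 89 to 90 Mb had a PBS mean of 69.1 CPM and a CD11b-positive over PBS ratio of 1.07. That from 98 to 99 Mb had 61.6 CPM and 1.07 without the 10 kb bin. The depth of the 100 kb bins was not examined, so these steps are not read as edges.

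The 10 kb bin took 2664, 1121, 2399 and 1541 CPM in PBS 1 to 4. It took 3573, 10942, 1767 and 1450 in CD11b-negative 1 to 4, and 10821, 7171, 6336 and 4496 in CD11b-positive 1 to 4. Every CD11b-positive library was above every PBS library, while CD11b-negative 3 and 4 lay within the PBS range and CD11b-negative 2 was the highest of all 12. The mean was 1931 ± 722 in PBS, 4433 ± 4439 in CD11b-negative and 7206 ± 2657 in CD11b-positive (SD, n = 4). Counting error was small beside this spread: the widest 95% Wilson interval was 10922 to 10961, and reads without molecular identifiers make such intervals cover counting error only.

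This bin alone supplied 23.8 to 42.9% of the calls of the stretch in PBS and 56.7 to 75.9% in CD11b-positive. It was the second most covered of all autosomal 10 kb bins by mean calls, and the deepest single CpG of the genome lay in it in 9 of 12 libraries. Without it, the stretch took 3473 to 3587 CPM in PBS, 3487 to 3724 in CD11b-negative and 3429 to 3471 in CD11b-positive. Divided by the calls of the flanks (80 to 90 and 100 to 110 Mb), the stretch share was 1.93 times as high in CD11b-positive as in PBS, and 0.968 times without the bin. The rest of the stretch thus had slightly fewer calls in CD11b-positive than in PBS, with 0.732 to 0.744 times the calls of the flanks against 0.754 to 0.773, ranges that do not overlap.

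**Figure D2:**
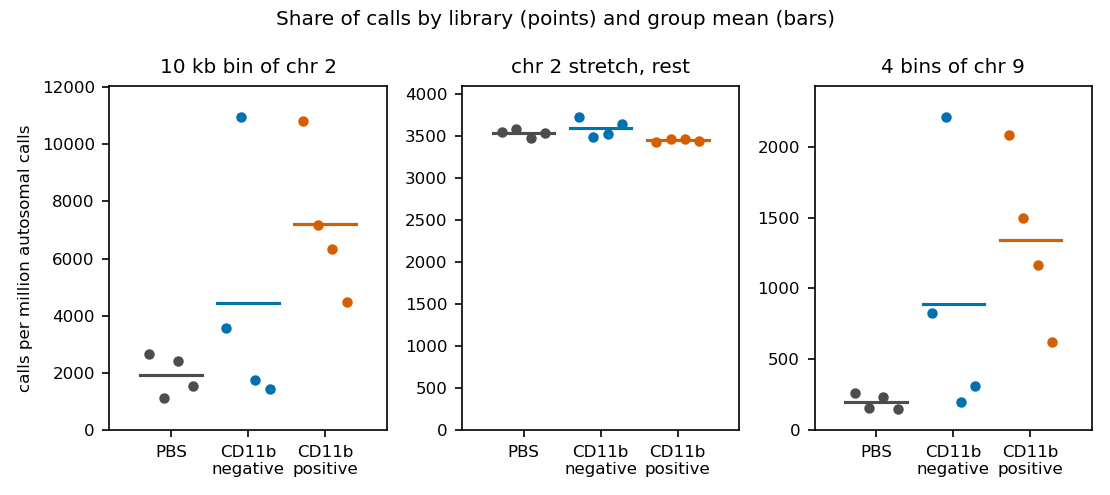
Calls (CPM, per 1000000 autosomal calls) in the 10 kb bin of chromosome 2 (left), in the rest of the stretch (middle) and in 4 bins of 10 kb at the start of chromosome 9 (right), with a point per library and a bar at each group mean (n = 4). The rest of the stretch stays between 3429 and 3724 in all 12 libraries, while CD11b-negative 2 and CD11b-positive 1 are the highest libraries in both outer panels.

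The bin overlaps no annotated RefSeq gene of any kind. The nearest protein-coding gene, Lrrc4c, which encodes a ligand of netrin-G at synapses, ends 1028 kb away. Its 86 listed CpGs include 40 with a mean of at least 5 CPM, the core CpGs, at 98662264 to 98667326. The weakest of these had 5.07 CPM and the strongest CpG left out had 4.87. They form a lower cluster of 13 CpGs over 423 bp (98662264 to 98662686) and an upper cluster of 27 (98665072 to 98667326).

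Reads reached the clusters from opposite strands. All 13 CpGs of the lower cluster took 95.5 to 99.9% of their calls from the minus strand, and 24 of 27 of the upper cluster took over 90% from the plus strand. In all, 38 of the 40 core CpGs had over 90% of calls from 1 strand, or 95%, against 13.9% of the 3830 other common CpGs of the stretch. The most frequent distances between core CpGs were 234, 251 and 485 bp, with 8 pairs each, and 234 bp is the length of the repeating unit of mouse major satellite. The genome sequence was not used here, so whether the bin holds satellite sequence was not tested.

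The excess was uneven within the bin. The upper cluster took 444 to 897 CPM in PBS and 2279 to 7484 in CD11b-positive, a ratio of means of 6.87. The lower cluster took 673 to 1759 and 2193 to 3260, a ratio of 2.04. Among single CpGs the ratio ran from 1.18 to 12.8 with a median of 5.64. The core CpGs were chosen by their mean over all libraries, so 8 of them entered with under 5 CPM in PBS. The other 32 had ratios of 1.18 to 12.4 with a median of 4.31. The deepest on average, at 98667149, had a ratio of 11.1, while that at 98662601, nearly as deep, had 1.36.

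A few bins elsewhere also held an excess in CD11b-positive. Of 24087 autosomal 10 kb bins with at least 10 CPM on average, 10 had a CD11b-positive mean of at least 2 times the PBS mean, and 0 had a ratio of 0.5 or less. The average is over all 12 libraries, and 4 of the 10 had under 10 CPM in PBS. With the same minimum applied to the PBS mean instead (chosen after the data were seen), 6 of 24724 bins had a ratio of at least 2 and 1 had 0.5 or less. One of the 10 is the chromosome 2 bin, and 4 lie at the start of chromosome 9, from 3000001 to 3040000, next to the centromere. Those 4 together took 258, 153, 236 and 150 CPM in PBS 1 to 4, 826, 2208, 200 and 312 in CD11b-negative 1 to 4, and 2081, 1498, 1166 and 623 in CD11b-positive 1 to 4. CD11b-negative 2 was again the highest library and CD11b-positive 1 the second. Another chromosome 9 bin, from 35300001 to 35310000, had a ratio of 8.99, and 1 on chromosome 12, from 3100001 to 3110000, had 3.16. Among the 33 core CpGs of the 4 bins the most frequent distance was 233 bp (8 pairs).

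The core CpGs of the bin were mostly methylated in every library. The mean over the 40, each weighted equally, was 84.8, 84.5, 84.8 and 84.4% in PBS 1 to 4, 87.7, 86.3, 85.6 and 87.3% in CD11b-negative 1 to 4, and 86.1, 86.5, 86.2 and 86.0% in CD11b-positive 1 to 4. Pooled over calls, it was 72.1 to 76.9% in PBS, 76.3 to 88.3% in CD11b-negative and 77.8 to 83.97% in CD11b-positive, with means of 73.6% ± 2.25 in PBS and 81.8% ± 2.74 in CD11b-positive (SD, n = 4). Both measures were higher in every CD11b-positive library than in every PBS library, by more when pooled. Pooled values also depend on which CpGs hold the calls. The CpG at 98662601, with 28.6% in PBS, had 1.36 times the PBS calls in CD11b-positive. That at 98667149, with 89.5% in PBS, had 11.1 times. The part of this in the pooled difference was not tested. The 33 chromosome 9 CpGs had 86.5 to 88.3% over all 12. Of the 40, 37 had over 70% in PBS and 36 differed by less than 5 points between CD11b-positive and PBS. By the rule above, 1 of the 40 was called for CD11b-positive against PBS, where 16.7% of all common CpGs were. Others had an adjusted p under 0.05 by the quasi-binomial F test with under 10 points, in both directions. The CpG at 98662565 had the lowest adjusted p of the stretch, 1.51e-06, with 2.57 points. That at 98662629 had 9.63 points (adjusted p = 0.00251) and that at 98662438 had -2.27 points (adjusted p = 5.78e-06). The single call thus does not mean that the others were unchanged.

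The called CpG, at 98662280, had 53.1, 56.9, 57.7 and 52.9% in PBS 1 to 4. It had 89.99, 80.9, 57.8 and 82.9% in CD11b-negative 1 to 4, and 84.6, 80.4, 79.4 and 71.4% in CD11b-positive 1 to 4. CD11b-positive and PBS did not overlap, and CD11b-negative 3 sat just above the PBS libraries. The rise to CD11b-positive was 23.8 points (quasi-binomial F test, adjusted p = 0.000112), and that to CD11b-negative, 22.8 points, did not pass (adjusted p = 0.755). The most weakly methylated core CpG, at 98662601 in the same cluster, had 28.6% ± 8.67 in PBS and 24.0% ± 1.35 in CD11b-positive (SD, n = 4, adjusted p = 0.615 by the quasi-binomial F test). The deepest, at 98667149, had 89.5% ± 0.636 and 89.96% ± 0.292. None of the 4 tiles of 1000 bp in the bin was called in any comparison.

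**Figure D3:**
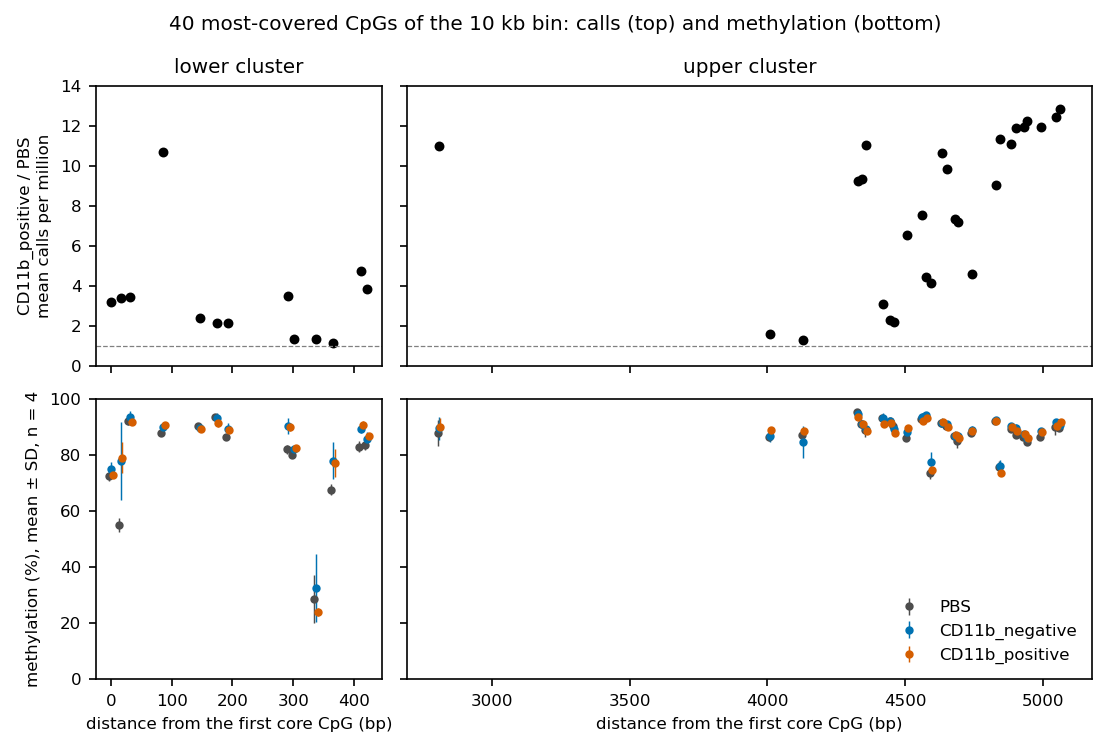
The 40 core CpGs of the 10 kb bin by distance from the first (bp), with the ratio of mean CPM between CD11b-positive and PBS (top, dashed line at 1) and methylation as mean ± SD of 4 libraries per group (bottom). Ratios run from 1.18 to 12.8, while methylation stays above 70% in PBS at 37 of 40 CpGs.

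The depth-weighted average of the stretch moved with the bin. Pooled over all calls of common CpGs, the stretch had 44.8% ± 3.63 methylation in PBS and 67.1% ± 5.62 in CD11b-positive (SD, n = 4), and 28.5% ± 1.82 and 33.9% ± 1.67 without the bin. The comparisons below weight each CpG equally.

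With equal weights, methylation of the stretch was 26.8, 28.2, 27.6 and 27.5% in PBS 1 to 4. It was 29.0, 33.7, 28.3 and 28.0% in CD11b-negative 1 to 4, and 31.8, 34.2, 31.2 and 31.1% in CD11b-positive 1 to 4. Every CD11b-positive library exceeded every PBS library, and CD11b-negative 2 lay with the CD11b-positive libraries. The CD11b-positive mean was 4.54 points above PBS, and the exact permutation test (two-sided) gave p = 0.0286. No lower p is possible over 70 assignments. It becomes 0.0857 when adjusted over the 3 comparisons and misses 0.05. CD11b-negative was 2.22 points above PBS (exact permutation p = 0.0571, adjusted p = 0.0857) with 0.889 points without its library 2 and 2.81 points without its library 4 (adjusted p = 0.0429 by the same exact test). CD11b-positive was 2.33 points above CD11b-negative (exact permutation p = 0.143, adjusted p = 0.143), and 3.65 points without CD11b-negative 2 (adjusted p = 0.0429 by the same test). CD11b-positive was the higher in all 4 same-numbered pairs, and the paired exact permutation test gave p = 0.125, the smallest that 4 pairs allow.

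The flanks had 30.9 to 31.6% in PBS, 32.02 to 36.6% in CD11b-negative and 34.6 to 37.1% in CD11b-positive. The stretch was lower than its flanks by 3.37 to 4.08 points in PBS and by 2.89 to 3.58 points in CD11b-positive. The change of 0.50 points in this gap did not pass (exact permutation p = 0.0857, adjusted p = 0.257), and was 0.277 points with a coverage minimum of 20 calls (adjusted p = 0.471 by the same test). Against the rest of chromosome 2 the change was 1.22 points and against the rest of the autosomes 1.08 points (each exact permutation p = 0.0286, adjusted p = 0.0857). The share of CpGs at 20 to 80% methylation was 17.7 to 19.7% in PBS, 16.6 to 17.5% in CD11b-positive 1, 3 and 4, and 8.92% in CD11b-positive 2. The mean difference of -3.67 points (exact permutation p = 0.0286, adjusted p = 0.0857) was -1.61 points without CD11b-positive 2.

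**Figure D4:**
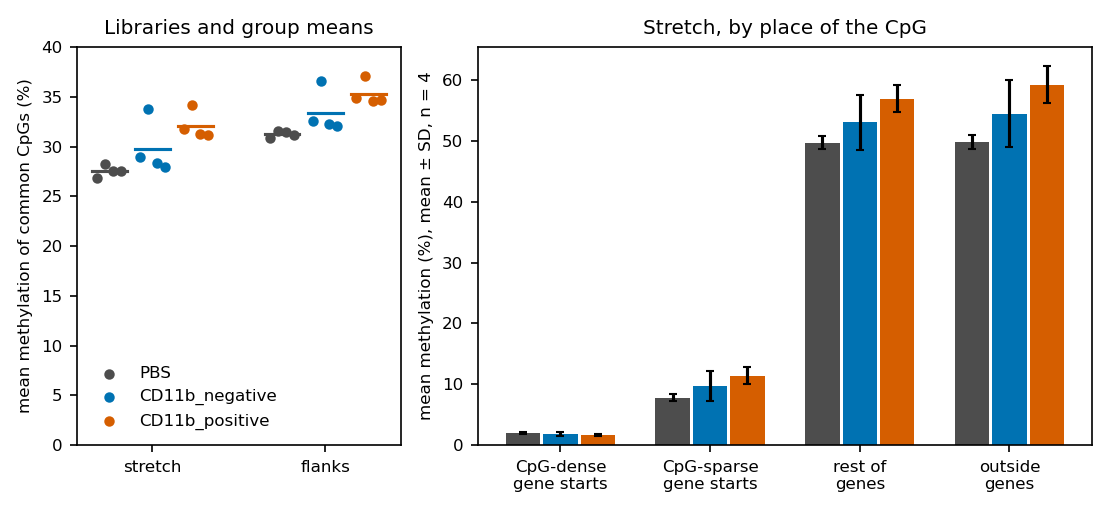
Left, mean methylation of the common CpGs of the stretch and of its flanks, a point per library and a bar at each group mean. Right, methylation of the stretch by place of the CpG (mean ± SD of 4 libraries): CpG-dense gene starts have means under 2% in all 3 groups, while the rest of genes and the DNA outside genes lie at 49.7 to 59.3%.

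By place, the 1520 common CpGs at CpG-dense gene starts (or gene ends where no start was known, where 25 or more listed CpGs fell within 250 bp of the CpG in both directions together) had 1.92% ± 0.150 in PBS and 1.66% ± 0.180 in CD11b-positive (SD, n = 4, difference -0.26 points, adjusted p = 0.171 by the exact permutation test). The 960 CpGs outside genes had 49.8% ± 1.23 and 59.3% ± 3.08, a difference of 9.43 points. The 1075 in the rest of genes had 49.7% ± 1.03 and 57.0% ± 2.29, a difference of 7.25 points. The 323 at CpG-sparse gene starts had 7.78% ± 0.551 and 11.4% ± 1.40, a difference of 3.62 points. CD11b-positive and PBS did not overlap in these 3 classes, and each had p = 0.0286 by the exact permutation test, adjusted p = 0.114 over 4 classes and 3 comparisons. In the flanks the corresponding differences were 10.02 points outside genes, 6.73 in the rest of genes, 0.844 at sparse and -1.58 at dense gene starts.

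Single CpGs and tiles of 1000 bp with at least 3 common CpGs were read against the whole table. Of the 3878 common CpGs, 531 were called between CD11b-positive and PBS, 496 higher and 35 lower, or 13.7%, where 16.7% of all common CpGs were called (13.2% higher, 3.47% lower). Of 296 tiles, 111 were called, 107 higher and 4 lower, or 37.5%, where 36.2% of all 87020 tiles were (32.5% higher, 3.76% lower). The median tile difference was 4.94 points, against 5.0 over all tiles. The calls were thus mostly gains, and the lower share at single CpGs was 0.903%. Leaving out each of the 8 libraries in turn gave 379 to 521 called CpGs and 90 to 112 called tiles, counts not set beside the whole table. With the Y share as a term in the fit, 7 CpGs and 1 tile of the stretch were called, where 0.105% of all common CpGs and 0.138% of all tiles were.

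Called tiles were common where PBS methylation was intermediate. The tiles were grouped by the same PBS values that enter the difference, and a call needs 10 points. Tiles over 80% in PBS had a median of 87.5%, with little room to rise. Those under 20% had a median of 1.24%, with little room to fall. Of 121 tiles at 20 to 80% in PBS, 94 were called higher and 2 lower. Of 115 tiles under 20%, 9 were called, and of 60 tiles over 80%, 6 were. These shares, 79.3, 7.83 and 10%, compare with 72.7, 8.29 and 2.66% over all tiles. By position, the 5 bins of 1 Mb from 90 to 95 Mb had 5 of 33, 24 of 83, 28 of 62, 29 of 60 and 5 of 16 tiles called higher. The 5 bins from 95 to 100 Mb had 5 of 9, 1 of 4, 2 of 7, 4 of 12 and 4 of 10. Of all tiles, 32.5% were called higher.

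The 3 largest gains among tiles whose CD11b-positive and PBS libraries did not overlap lay inside genes. The tile at chr2:92431001-92432000 in Cry2, a repressor of the circadian clock, had 4.83, 24.9, 17.2 and 16.4% in PBS 1 to 4 and 52.7, 86.5, 56.3 and 42.3% in CD11b-positive 1 to 4. It rose by 43.6 points (quasi-binomial F test, adjusted p = 0.00358). CD11b-negative 1, 3 and 4 had 16.3 to 25.8% there and CD11b-negative 2 had 83.1%. The tile at chr2:91129001-91130000 in Mybpc3, which encodes a myosin-binding protein of heart muscle, rose from 35.7% ± 8.96 to 75.5% ± 14.7 (SD, n = 4, adjusted p = 0.00446 by the quasi-binomial F test). The tile at chr2:93233001-93234000 in Tspan18, which encodes a tetraspanin, rose from 17.7% ± 2.99 to 56.1% ± 15.1 (adjusted p = 0.00423). None of the 3 was called with the Y share as a term (adjusted p = 0.459 to 0.662).

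The largest loss was at chr2:91138001-91139000 in Madd, which encodes an exchange factor for Rab GTPases. It had 85.6, 78.3, 79.4 and 81.8% in PBS 1 to 4, 59.3, 46.2, 75.0 and 74.6% in CD11b-negative 1 to 4, and 57.8, 38.4, 48.9 and 55.04% in CD11b-positive 1 to 4. CD11b-negative 1 and 2 lay toward the CD11b-positive libraries and 3 and 4 toward PBS. It fell by 31.2 points (quasi-binomial F test, adjusted p = 0.00109). A tile in Zfp408, a zinc finger gene, fell by 15.8 points at chr2:91646001-91647000 (adjusted p = 0.0387 by the same test). A tile in Alx4, a homeobox gene of limb and skull development, fell by 14.2 points at chr2:93648001-93649000 (adjusted p = 0.0328). The Zfp408 tile passed in 2 and the Alx4 tile in 4 of 8 fits that left out 1 library, and the Alx4 difference was -8.82 points without CD11b-positive 2. With the Y share as a term none of the 3 was called (adjusted p = 0.0995 to 0.555).

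Between CD11b-negative and PBS the quasi-binomial F test called 0 CpGs and 0 tiles of the stretch, and 0% of either over the whole table (lowest adjusted p in the stretch 0.220 and 0.488), with 193 CpGs and 31 tiles under an unadjusted p of 0.05. These were 4.98 and 10.5% of those in the stretch, where 5.02 and 9.90% of all common CpGs and tiles were under it. CD11b-positive and CD11b-negative likewise gave 0 calls without pairing (0% of the whole table), with 272 CpGs and 42 tiles under an unadjusted 0.05, or 7.01 and 14.2%, where 6.81 and 10.8% of all were. With the replicate number as a block, 213 CpGs (194 higher in CD11b-positive) and 39 tiles (38 higher) were called between the sorted fractions, 5.49 and 13.2% of those tested, where 6.88% of all common CpGs and 13.5% of all tiles were. All 39 of those tiles were among the 111 called against PBS. Both comparisons use the same CD11b-positive libraries, so part of this overlap is built in, and it was not counted over all tiles. Without CD11b-negative 2 and with no block, 231 CpGs and 61 tiles were called, 5.96 and 20.6% of those in the stretch, where 7.32 and 20.5% of all were.

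Of 73 protein-coding genes in the stretch, 52 had a window of 1000 bp on each side of the start with at least 3 common CpGs, or of a gene end for the 13 measured genes with no start in the promoter table. None of the 14 olfactory receptor genes was measured. Window methylation in PBS was under 5% at 42 of the 52, or 80.8%, where 70.5% of all 13929 windows were. Only 1, Spi1, had 50% or more, in a window at a gene end not known to be its start. Between CD11b-positive and PBS 2 of 52 windows were called, both higher, where 9.42% of all windows were called (4.54% higher, 4.88% lower). CD11b-negative gave 0 calls against PBS and against CD11b-positive (0% of all windows in each). With the block the latter also gave 0, where 4.59% of all windows were called. There were 3 and 2 windows under an unadjusted p of 0.05 in the unpaired quasi-binomial fits, 5.77 and 3.85% of the 52, where 5.26 and 6.78% of all windows were.

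The F2 window rose most. It had 10.1, 33.2, 17.9 and 21.98% in PBS 1 to 4, 33.4, 82.9, 27.7 and 18.2% in CD11b-negative 1 to 4, and 48.9, 82.6, 44.4 and 50.3% in CD11b-positive 1 to 4. CD11b-positive and PBS did not overlap, and the libraries numbered 2 were the highest of each group. The difference was 35.8 points (quasi-binomial F test, adjusted p = 0.0319), and 27.1 without CD11b-positive 2 (adjusted p = 0.0193). All 6 measured CpGs lay at 91635475 to 91635641, inside the gene, outside the sequence printed above, with 1159 to 2601 calls per library in all. The 5 farthest from the start each rose by 40.02 to 43.97 points. The nearest to the start had 13.99% in PBS and 29.02% in CD11b-positive, which did not pass (adjusted p = 0.0674 by the quasi-binomial F test).

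Spi1 has no start in the promoter table, and its window, chr2:91114759-91116759, was placed on its high-coordinate end. Its values are therefore not read as those of the Spi1 start. It had 78.2, 78.6, 79.5 and 78.3% in PBS 1 to 4, 80.5, 90.9, 77.5 and 80.2% in CD11b-negative 1 to 4, and 90.8, 92.3, 83.6 and 91.5% in CD11b-positive 1 to 4. The PBS libraries lay close together and below every CD11b-positive library, and CD11b-negative 2 lay among the latter. The difference was 10.9 points (quasi-binomial F test, adjusted p = 0.0127), just over the 10 a call needed. Of its 7 CpGs, 1 was called: that at 91115868 rose from 27.4 to 66.1% (adjusted p = 0.00372 by the quasi-binomial F test). Its neighbour at 91115888 had 49.4 and 83.3% and did not pass (adjusted p = 0.0871). The other 5 had 84.5 to 97.3% in PBS, with differences of 0.329 to 5.13 points.

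F2 was called in 4 of the 8 fits that left out 1 library, and Spi1 in 7 of 8, its difference being 9.98 points without CD11b-positive 2 and 9.15 points with a coverage minimum of 20 calls. Neither was called when all 12 libraries were fitted together (F2 adjusted p = 0.108, Spi1 0.0690) or with the Y share as a term (0.980 and 0.650).

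Of the 36 genes listed by role, 31 were measured. Among 8 of 8 genes of transcription and chromatin Spi1 was called, at its high-coordinate end. Cry2 (1.03% in PBS, 3.604% in CD11b-positive, adjusted p = 0.000863) and Zfp408 (0.628 and 0.995%, adjusted p = 0.0276) had an adjusted p under 0.05 with differences under 10 points. Nr1h3, which encodes the oxysterol receptor LXR-alpha, had 5.29 and 10.04% (adjusted p = 0.127), and Alx4 11.6 and 8.85% (adjusted p = 0.0809).

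Of 5 of 5 blood and immune genes F2 was called, and Cd82 and Mdk passed the adjusted p only. Cd82 had 1.97, 2.02, 2.21 and 2.39% in PBS 1 to 4 and 4.22, 7.80, 7.10 and 5.97% in CD11b-positive 1 to 4, with no overlap. The difference was 4.12 points over 24 CpGs (quasi-binomial F test, adjusted p = 0.000233), and the 5 CpGs in its printed sequence had 0.623% ± 0.348 in PBS and 0.339% ± 0.399 in CD11b-positive (SD, n = 4). Mdk, which encodes the growth factor midkine, had 1.91 and 3.86% (adjusted p = 0.0131). Ptprj, with 110 CpGs, had 0.525 and 0.612% (adjusted p = 0.411), and Dgkz, a diacylglycerol kinase gene, 0.516 and 0.701% (adjusted p = 0.220).

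The other roles had low levels throughout. The 3 DNA repair and autophagy genes (Ddb2, Alkbh3 and Ambra1) had 0.395 to 2.13% in PBS and 0.466 to 1.77% in CD11b-positive. The 5 measured metabolic genes lay at 0.583 to 0.811% and 0.436 to 1.44%, and 4 genes of RNA, nuclear pore and microtubules at 0.462 to 0.626% and 0.509 to 0.637%. None of these 12, nor of the 2 glycan genes Ext2 and Chst1, had an adjusted p under 0.05. Of 4 measured nerve and muscle genes Chrm4, which encodes a muscarinic acetylcholine receptor, did (2.09 and 4.95%, adjusted p = 0.000335), with 2.86 points between the means. Chrm4 was also the window with the lowest adjusted p between the sorted fractions when paired by number (1.56 points, adjusted p = 0.0166).

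Outside the lists the widest of the differences with an adjusted p under 0.05 was at Lrp4, a receptor gene of the nerve-muscle synapse. Its window had 1.79, 4.34, 3.63 and 4.16% in PBS 1 to 4 and 9.51, 16.0, 12.4 and 12.7% in CD11b-positive 1 to 4, a difference of 9.20 points (quasi-binomial F test, adjusted p = 0.00214), which fell short of 10. In all, 15 of the 52 windows (28.8%) had an adjusted p under 0.05, 13 of them with under 10 points, where 24.1% of all windows had one. Lrp4 was singled out after its values were seen. So was 1700029I15Rik, whose window of 3 CpGs had 46.0% ± 10.8 in PBS and 74.5% ± 14.6 in CD11b-positive (SD, n = 4) at 50 to 157 calls per library, and did not pass (adjusted p = 0.115 by the quasi-binomial F test).

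**Figure D5:**
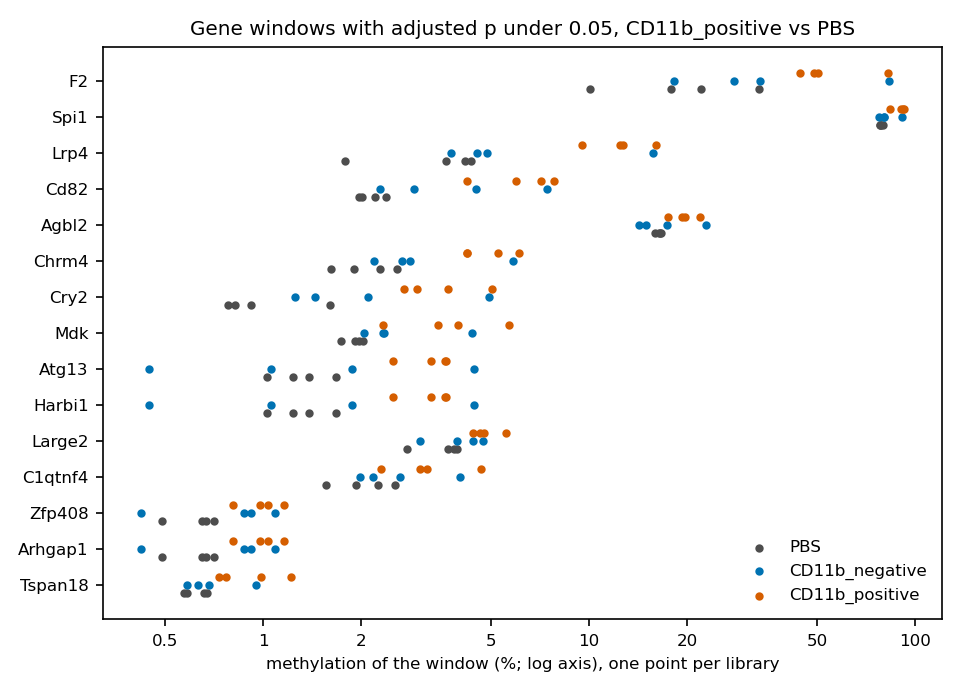
Methylation (%; log axis) of the 15 gene windows with an adjusted p under 0.05 between CD11b-positive and PBS, a point per library. F2 and Spi1 alone differ by 10 points or more, and Atg13 with Harbi1 and Zfp408 with Arhgap1 share a window of CpGs.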

How the data were processed

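Reduced representation bisulfite sequencing was done on 12 libraries, 4 per group. The authors deposited counts of methylated and unmethylated reads per cytosine in CpG context, on build mm10. The submitters' processing notes name methylKit 1.20.0, Bismark, Trim Galore 0.6.4 and cutadapt 2.7. The conversion rate, duplicate handling and alignment settings are not given in the labels or file headers used here. Members, region and gene lists were chosen with earlier results of these data known.

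Both strands of a CpG were summed, and CpGs with at least 10 calls in all 12 libraries were compared. The median was 89 calls per such CpG and library in the stretch. CpGs, tiles of 1000 bp and gene windows were tested on the whole table of autosomes and X with a quasi-binomial logistic model and F test, the dispersion moderated as in limma, in Python 3.11.15 with scipy 1.17.1. P-values were adjusted by Benjamini-Hochberg over the whole table. The method was run on simulated data in which every library had the same spread and none was outlying. That run therefore gives no error rate for the spread of these libraries. Means over the stretch were compared by two-sided exact permutation over 70 assignments, adjusted over 3 comparisons (12 for classes of CpGs). Gene windows and promoter sequences came from RefSeq tables of GRCm38.p6. Named tiles were the 3 largest called gains and the 3 largest called losses without overlap of the groups. Named genes were those called and 36 listed by role.

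Deviations from the group means over tiles correlated between same-numbered CD11b-positive and CD11b-negative libraries (r = 0.151, 0.925, 0.647 and 0.675 for numbers 1 to 4), which were taken as pairs. Only number 2 correlated best with its own number, while numbers 1, 3 and 4 correlated best with 4, 4 and 3. The pairing was chosen from these same data, and the calls with the replicate block rest on it. The number is in the labels, which do not say what it marks. In the comparisons with PBS, number 4 gave r of -0.0996 and -0.129, and no pairing was taken, although numbers 1 and 2 correlated best with their own number there.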

Additional observations from a re-analysis of the deposited data

Results flagged for a closer look

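In groups of 4 libraries a library was set aside for a closer look where its gap to the nearest other exceeded Dixon's 95% critical value. Of 48 groups checked, 5 held such a library. Chance gives about 1 in 20 for independent groups. These share the same 12 libraries, and some were chosen for large differences, so that rate is no yardstick here. All 5 were libraries numbered 2 of the treated fractions.

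The share of CpGs of the stretch at 20 to 80% methylation was 10.3% in CD11b-negative 2, with the nearest library of its group at 18.6%. It was 8.92% in CD11b-positive 2, with the nearest at 16.6%. The F2 window, at the prothrombin gene, had 82.6% methylation in CD11b-positive 2 and 50.3% in the nearest library. The Cry2 tile at 92431001 had 83.1% in CD11b-negative 2 and 25.8% in the nearest. The Alx4 tile at 93648001 had 7.50% in CD11b-positive 2 and 27.1% in the nearest.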

How the results depend on the processing

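Of the alternatives, leaving out the 10 kb bin was chosen after seeing the data, as were leaving out each library for the classes of CpGs and filtering bins and core CpGs on PBS alone. The stretch call share was 1.93 (CD11b-positive over PBS) and 1.30 (over CD11b-negative). It became 0.903 and 0.942 by CpGs listed, 0.968 and 0.940 without the bin, and, over PBS, 1.29 by unmethylated calls. Called CpGs of CD11b-positive against PBS, 531, became 292 in the fit of all 12 libraries and 7 with the Y share as a term (0.181%, where 0.105% of all common CpGs were called). Called tiles, 111, became 1 with the Y share (0.338%, where 0.138% of all tiles were) and 47 at 20 points. Where a count in this section has no whole-table share beside it, its change cannot be read as particular to the stretch. The 2 called gene windows became 0 in the fit of all 12 and 0 with the Y share. CD11b-negative against PBS gave 7 called CpGs with the Y share and 2 with the replicate block. The replicate block gave 213 CpGs and 39 tiles between the sorted fractions, and changed no other count of calls by over 1.5 times. Between the sorted fractions, only number 2 correlated best with its own partner.

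Leaving out 1 library gave, for CD11b-positive against CD11b-negative, 0 to 231 CpGs, 0 to 61 tiles, a call share of 1.16 to 1.76, a mean difference of 1.62 to 3.65 points, an intermediate share of -3.87 to 0.355, and class differences of -0.381 to -0.114 (dense starts), 1.05 to 2.95 (sparse starts), 2.80 to 6.15 (rest of genes) and 3.24 to 7.48 points (outside genes). For CD11b-negative against PBS the mean ran from 0.889 to 2.81, the gap to the flanks from -0.143 to 0.247, the intermediate share from -2.78 to 0.1998 and dense starts from -0.138 to 0.119. Gene windows called for CD11b-positive against PBS ran from 1 to 2, and those for CD11b-negative against PBS stayed at 0. The cause of these shifts was not tested. The exact test cannot reach an adjusted p under 0.05 when only 1 of 3 comparisons separates.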
